A study of Mus musculus with 13 samples.

Results

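The 9 genes described here are subunits and partners of the mouse Polycomb repressive complexes: Ezh1, Ezh2, Eed, Suz12, Jarid2, Mtf2, Phf19, Cbx7 and Rnf2. They were taken by gene symbol from the 20325 genes listed in every file, and all 9 were found and passed the filter on low counts. RNA was measured in bulk in pre-iPSCs, cells derived from mouse embryonic fibroblasts (MEFs) that stall on the way to induced pluripotent stem cells. The cells were wild type (WT) or knockout for Kdm3b (KO), a histone H3 lysine 9 demethylase, and were collected at day 0, day 2 and day 10 of ascorbic acid (50 µg/mL) with the GSK3 inhibitor CHIR-99021 and the MEK inhibitor PD-0325901 (AA+2i), with 2 replicates lettered A and B in each of the 6 groups. All groups shared a medium with fetal bovine serum and leukemia inhibitory factor. The split of the cultures on day 4 falls within the course of the day 10 groups only. The 4 day 0 libraries are titled DMSO although their treatment label reads AA+2i, and they were taken as the start of the course. One further library came from V6.5 mouse embryonic stem cells (ESC), wild type, also labelled AA+2i, with no replicate. The labels do not say whether A and B were separate cultures or whether each genotype was 1 clone, so the tests measure the spread between these libraries, which may be technical.

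Polycomb repressive complex 2 (PRC2) places methyl groups on lysine 27 of histone H3 (H3K27). Its core joins a catalytic subunit, Ezh2 or the less active Ezh1, to the scaffold Suz12 and to Eed, which binds the methylated product. Mtf2 and Phf19 are Polycomb-like subunits that, with their relative Phf1, define one form of the complex and bring it to CpG-rich DNA, while Jarid2 defines another form and also helps recruit it. Polycomb repressive complex 1 (PRC1) ubiquitinates histone H2A through Rnf2 (Ring1b) or Ring1, and in its canonical form reads methylated H3K27 through a Cbx protein. In mouse ESCs Cbx7 is the main such reader, and both complexes are known there for holding developmental genes silent.

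Library totals ran from about 14891300 to 26430100 expected counts. The mean gene length weighted by counts was 2986 to 3135 bases in the A libraries of days 0 and 2, 3716 to 3921 in the B libraries of those days and 3325 to 3437 at day 10. The day 10 libraries thus stood between the letters of the earlier days, and day 10 cannot be told apart from this library difference. The ESC library had the lowest such length, 2891 bases. Kdm3b stood at 146 to 261 CPM (the expected count scaled by the library total) in the WT libraries and at 17.7 to 65.5 CPM in the KO libraries, with no overlap. Its log2 fold change (KO over WT) was -1.98 at day 0, -2.71 at day 2 and -2.67 at day 10, with edgeR adjusted p of 0.0132, 0.00302 and 0.00121. The deleted part is not given in the sources used here, so reads outside it may still count. Without replicate A of KO day 0 or replicate B of WT day 0, the adjusted p at day 0 was 0.0955 or 0.0901. The naive pluripotency markers (10 genes) summed to 2891 to 11347 CPM in the pre-iPSC libraries and to 3073 CPM in the ESC library. That sum is carried by Pou5f1 and Klf4 (named after their values were seen), which fell in WT by day 10 (from 5793 to 1326 and from 1457 to 337 CPM), while 7 of the 10 markers rose (median log2 5.48 over the 10). The 12 fibroblast markers summed to 2.95 to 114 CPM in the pre-iPSC libraries, and to 278 CPM in the ESC library, and 7 of them were at 0 in both KO day 0 libraries. They summed to 10.3 to 19.3 CPM in WT day 0 and to 83.9 to 114 CPM in WT day 10, where 6 of the 10 that passed the filter were called higher. Of all genes tested, 34.1% were called between WT day 0 and WT day 10.

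The stretches just upstream of the 3 members that changed between day 0 and day 10 in both genotypes are shown here, since these genes carry most of what follows. Each is the 250 bases before the transcript start in RefSeq (GRCm38.p6), 5′ to 3′ on the gene's strand, with every CpG in capitals. The Cbx7 window is chr15:79932647-79932896 (minus strand), the Mtf2 window chr5:108065424-108065673 (plus strand, the first of its 2 starts) and the Phf19 window chr2:34913977-34914226 (minus strand).
Cbx7: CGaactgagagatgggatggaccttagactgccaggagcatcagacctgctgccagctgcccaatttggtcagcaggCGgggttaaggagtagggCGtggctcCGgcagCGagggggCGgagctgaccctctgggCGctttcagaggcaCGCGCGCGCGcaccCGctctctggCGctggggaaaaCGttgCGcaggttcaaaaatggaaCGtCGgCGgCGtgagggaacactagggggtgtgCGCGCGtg
Mtf2: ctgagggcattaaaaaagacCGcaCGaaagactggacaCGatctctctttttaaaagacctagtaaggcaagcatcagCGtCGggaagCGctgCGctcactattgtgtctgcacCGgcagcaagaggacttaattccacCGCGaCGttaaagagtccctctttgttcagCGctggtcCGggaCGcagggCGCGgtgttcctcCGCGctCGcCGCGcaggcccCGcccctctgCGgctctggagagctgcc
Phf19: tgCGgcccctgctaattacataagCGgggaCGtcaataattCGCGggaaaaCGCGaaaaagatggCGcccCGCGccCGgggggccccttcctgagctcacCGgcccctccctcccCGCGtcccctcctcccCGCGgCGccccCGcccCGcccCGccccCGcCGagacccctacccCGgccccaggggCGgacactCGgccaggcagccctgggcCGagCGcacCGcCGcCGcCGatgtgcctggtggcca

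All 3 windows are CpG-rich. Cbx7 and Mtf2 each hold 23 CpG dinucleotides and Phf19 holds 31, against a median of 10 (quartiles 3 and 19) over the 20998 windows of the same length in the table. The window of the second Mtf2 start holds 2. Across all 9 members, which have 11 windows, the richest was that of Suz12 with 37. The motifs searched, on both strands, were CCAAT (35.3% of all windows), CACGTG (6.69%), CTTTGAT (2.83%) and the E2F motif TTTCCCGC or TTTGGCGC (1.69%). TTTCCCGC occurs 208 bases before the Phf19 start and 219 bases before the Suz12 start, and CCAAT occurs upstream of Ezh2, Suz12, Jarid2, Mtf2 (second start) and Cbx7. Neither CACGTG nor CTTTGAT occurs in the 11 windows.

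Cbx7, the PRC1 reader, showed the widest range of the 9 members. In WT cells it stood at 1.82 and 2.75 CPM at day 0 (replicates A and B), at 2.03 and 2.99 CPM at day 2, and at 97.2 and 115 CPM at day 10. In KO cells it stood at 0.0907 and 0.347 CPM at day 0, at 1.01 and 1.14 CPM at day 2, and at 4.50 and 1.88 CPM at day 10. The ESC library held 234 CPM. Both WT day 10 libraries thus lay far above every other pre-iPSC library, and no KO library exceeded 4.50 CPM.

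Between day 0 and day 10 Cbx7 rose 45.0-fold in WT cells (log2 5.49 ± 0.47 SE, adjusted p = 8.6e-05) and 13.9-fold in KO cells (log2 3.80 ± 0.57, adjusted p = 0.00283). The KO rise started from 9 expected counts over both day 0 libraries (0.212 CPM, 95% Poisson interval 0.0970 to 0.403, counting error only) and reached 103 counts, against 101 and 3540 counts in WT. Its size rested on single libraries: the log2 value was 3.16 without replicate A of KO day 0, 4.98 without replicate B of KO day 0 and 3.05 without replicate A of KO day 10, and it stayed called in each. In WT cells the change had come after day 2, with a log2 difference of 5.38 ± 0.47 between day 10 and day 2 (adjusted p = 0.000141) and of 0.11 ± 0.43 between day 2 and day 0 (adjusted p = 0.993).

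Kdm3b KO cells held less Cbx7 than WT cells at day 10, by 32.2-fold (log2 -5.01 ± 0.46, adjusted p = 0.000161), and at day 0, by 9.97-fold (log2 -3.32 ± 0.57, adjusted p = 0.00843). The day 10 value was -5.76 without replicate A of KO day 10. The day 0 call was lost without replicate A of KO day 0 (log2 -2.67, adjusted p = 0.0617) or replicate B of WT day 0 (log2 -3.05, adjusted p = 0.0535), and the value was -4.48 without replicate B of KO day 0. At day 2 the difference was -1.15 (adjusted p = 0.186). With the replicate letter as a block at days 0 and 2 it was called there (-1.12, adjusted p = 0.0317), as was the KO change from day 0 to day 2 (2.31, adjusted p = 0.0107). The rise by day 10 was smaller in KO than in WT by 1.69 on the log2 scale, with a 95% interval for KO minus WT from -3.51 to 0.13 (adjusted p = 0.226), so a difference in the rise itself was not shown. A set of 5 epithelial marker genes was also higher at day 10 than at day 0. Its summed level was 121 to 175 CPM in WT day 0 and 1205 to 1255 CPM in WT day 10. In KO it was 14.8 to 26.2 and 205 to 269 CPM. It had already risen in WT by day 2, to 538 to 965 CPM, with all 5 genes called higher (5.3% of all genes called). No WT change of Cbx7 was called by then. In KO at day 10, where Cbx7 and Mtf2 were lower than in WT, all 5 epithelial markers were called lower too. So were 7 of 10 naive pluripotency markers and 6 of 10 fibroblast markers (32.3% of all genes were called). Of 6 neural markers 2 were called higher and 1 lower, with a sum of 375 to 378 CPM against 127 to 146 CPM in WT. Of 4 endothelial and blood markers tested, 1 was called higher and 0 lower. The part of a shift in cell makeup was not tested, and in bulk RNA more cells of a type and more RNA per cell cannot be told apart.

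Per length, Cbx7 passed another Cbx gene, Cbx6 (chosen after its values were seen), in WT cells. On the TPM scale, which divides by transcript length, Cbx7 stood at 1.09 and 2.19 at WT day 0 against 33.8 and 73.3 for Cbx6, and at 65.3 and 75.7 at WT day 10 against 29.8 and 25.1. In KO day 10 Cbx7 stood at 2.94 and 1.21 TPM against 42.4 and 40.2 for Cbx6. The ESC library held 133 TPM of Cbx7 and 22.1 of Cbx6. Cbx7 was thus above Cbx6 in the WT day 10 and ESC libraries and below it in the other 10, which is a description of levels with no test.

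**Figure D1:**
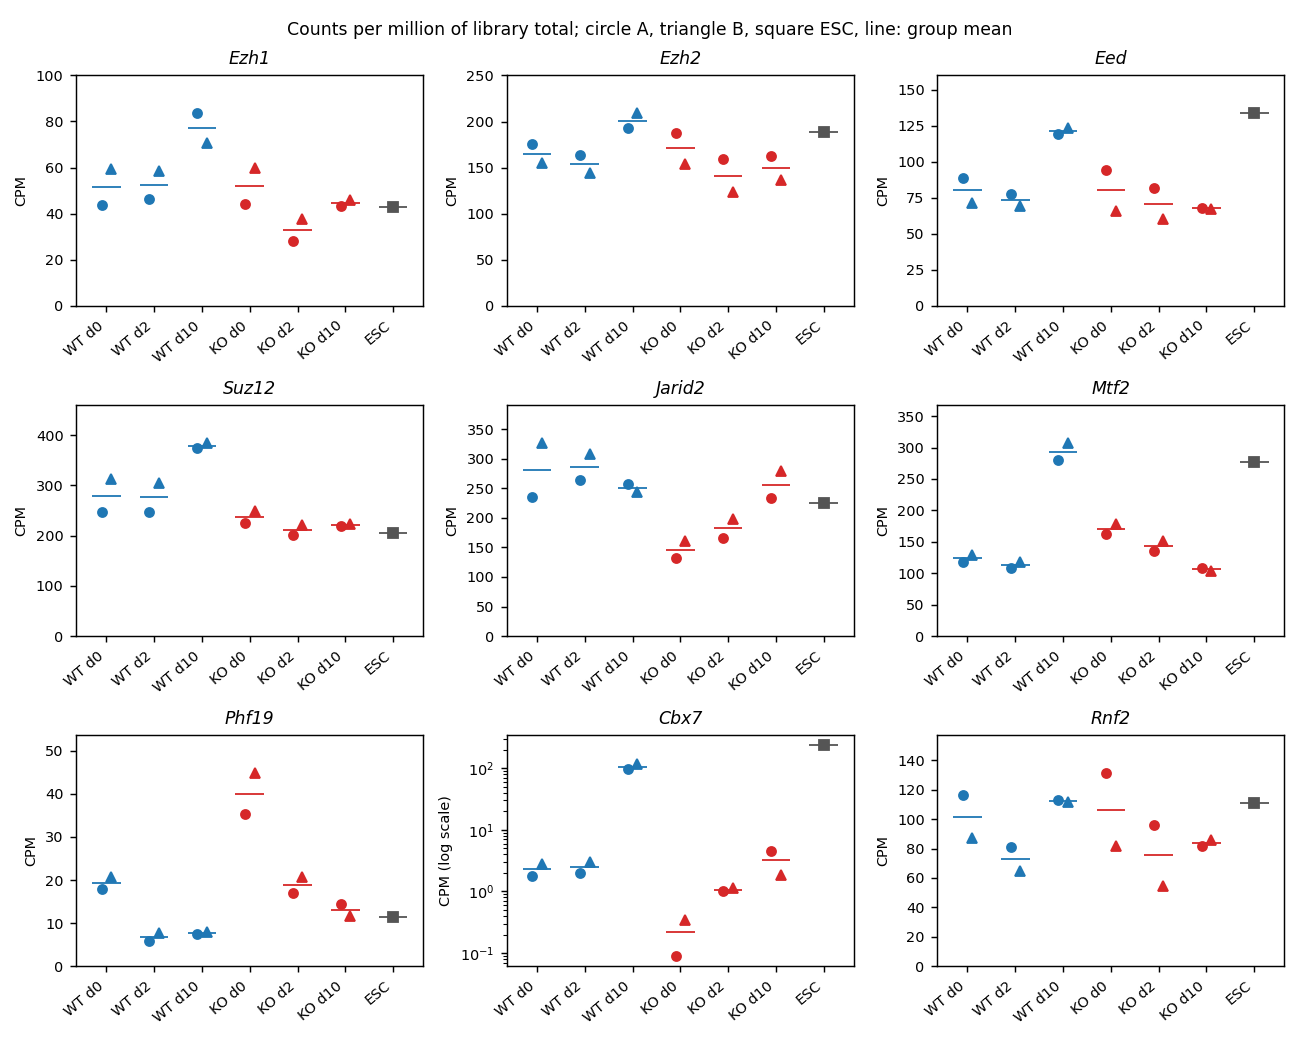
Level of each of the 9 members in CPM (vertical axis, logarithmic for Cbx7) in the 13 libraries by genotype and day. Circles are replicate A, triangles replicate B, the square is the ESC library and the short line is the group mean. The WT day 10 libraries stand apart for Cbx7 (97.2 and 115 CPM) and for Mtf2, while Phf19 was highest at KO day 0.

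Mtf2, the Polycomb-like subunit most abundant in ESCs, moved in opposite directions in the 2 genotypes. In WT cells it stood at 119 and 129.8 CPM at day 0, at 109 and 118 CPM at day 2, and at 280.2 and 307 CPM at day 10. In KO cells it stood at 163 and 178 CPM at day 0, at 136 and 151 CPM at day 2, and at 109 and 104 CPM at day 10. The ESC library held 276 CPM. WT day 10 was above all other pre-iPSC libraries, and the KO libraries stepped down from day to day without overlap between the days.

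Mtf2 rose 2.27-fold between day 0 and day 10 in WT cells (log2 1.18 ± 0.14, adjusted p = 0.000379) and fell in KO cells (log2 -0.74 ± 0.14, adjusted p = 0.00862). The KO call was lost without replicate B of KO day 0 (adjusted p = 0.0581), replicate A of KO day 10 (0.0698) or replicate B of KO day 10 (0.0927). The 2 changes differed from each other (log2 -1.93 ± 0.20 for KO minus WT, adjusted p = 0.000768), and this call was kept in all 20 alternatives tried. At day 10 KO cells held 2.68-fold less Mtf2 than WT cells (log2 -1.42 ± 0.14, adjusted p = 0.000231). At day 0 the difference had the other sign, with both KO libraries above both WT libraries (0.51 ± 0.14, adjusted p = 0.0634), and it was called with the replicate letter as a block (0.51, adjusted p = 0.000592). With it the day 2 difference (0.41, adjusted p = 0.00252) and the KO change from day 0 to day 2 (-0.27, adjusted p = 0.0389) were called as well.

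Phf19, the second Polycomb-like subunit, was lower after day 0 in both genotypes. In WT cells it stood at 18.0 and 20.8 CPM at day 0, at 5.76 and 7.72 CPM at day 2, and at 7.44 and 7.89 CPM at day 10. In KO cells it stood at 35.3 and 44.7 CPM at day 0, at 17.1 and 20.8 CPM at day 2, and at 14.4 and 11.7 CPM at day 10. The ESC library held 11.4 CPM, between the WT and KO values of day 10. KO libraries were above the WT libraries of the same day at each of the 3 days.

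In the fit without a block it was the only member called lower by day 2 in both genotypes, by 2.95-fold in WT (log2 -1.56 ± 0.19, adjusted p = 0.00285) and by 2.14-fold in KO (log2 -1.09 ± 0.19, adjusted p = 0.00915). By day 10 it had fallen by 2.63-fold in WT (log2 -1.39 ± 0.19, adjusted p = 0.000738) and by 3.20-fold in KO (log2 -1.68 ± 0.19, adjusted p = 0.000704). Phf19 was higher in KO than in WT by 2.14-fold at day 0 (log2 1.10 ± 0.19, adjusted p = 0.00768), by 2.95-fold at day 2 (log2 1.56 ± 0.19, adjusted p = 0.00145) and by 1.76-fold at day 10 (log2 0.81 ± 0.19, adjusted p = 0.0112). Several of these calls were lost when 1 library was left out, though the log2 values kept their sign. Over the 20 alternatives the genotype difference ran from 0.95 to 1.21 at day 0 and from 0.66 to 0.98 at day 10. The KO change to day 2 ran from -1.21 to -0.96. The day 0 difference was lost without replicate B of KO day 0 (adjusted p = 0.0760), replicate A of WT day 0 (0.0833) or replicate B of WT day 0 (0.0645). The day 10 difference was lost without replicate A of KO day 10 (0.0962), replicate A of WT day 10 (0.0733) or replicate B of WT day 10 (0.0536), and the KO change to day 2 without replicate B of KO day 0 (0.0837), replicate A of KO day 2 (0.0664) or replicate B of KO day 2 (0.0502). The falls to day 10 did not differ detectably between the genotypes (log2 -0.28 for KO minus WT, 95% interval -0.88 to 0.32).

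The make-up of the Polycomb-like trio differed between the groups. Mtf2 made up 73.8% and 65.9% of the summed Mtf2, Phf19 and Phf1 TPM at WT day 0, 86.0% and 88.8% at WT day 10, and 68.7% and 69.5% at KO day 10. Phf19 made up 12.1% and 11.5% at WT day 0, 2.48% in each library of WT day 10, and 9.88% and 8.49% at KO day 10, after 17.5% and 18.1% at KO day 0. In the ESC library Mtf2 made up 89.8% and Phf19 4.02%. Phf1 made up 14.1% and 22.6% at WT day 0 and 25.7% and 35.1% at WT day 2. It made up 11.5% and 8.71% at WT day 10, and 21.4% and 22.0% at KO day 10. In each group of days 0 and 2 the Phf1 share was higher in replicate B, so the early shares depend on the letter.

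**Figure D2:**
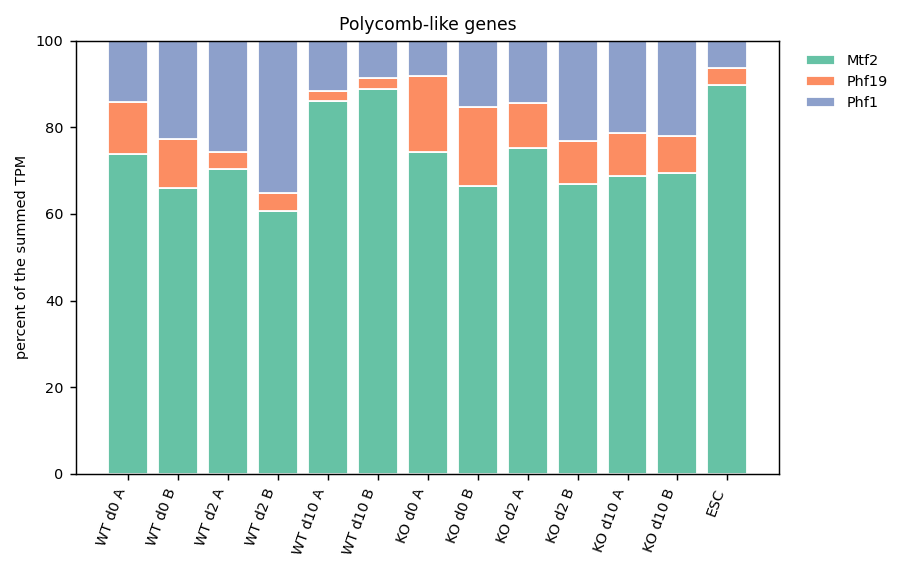
Percent of the summed TPM (vertical axis) taken by each gene of the Polycomb-like trio (Mtf2, Phf19, Phf1) in each of the 13 libraries, as stacked bars. Mtf2 takes 86.0% and 88.8% in the WT day 10 libraries and 89.8% in the ESC library, above every other library.

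Jarid2, the DNA-binding partner of the alternative PRC2 form, differed between the genotypes at day 0. In WT cells it stood at 235 and 326 CPM at day 0, at 265 and 308 CPM at day 2, and at 257 and 244 CPM at day 10. In KO cells it stood at 132 and 161 CPM at day 0, at 166 and 199 CPM at day 2, and at 233 and 279 CPM at day 10, and the ESC library held 225 CPM. The KO libraries lay below the WT libraries without overlap at days 0 and 2, and the genotypes overlapped at day 10.

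Jarid2 was 1.84-fold lower in KO at day 0 (log2 -0.88 ± 0.19, adjusted p = 0.0215) and rose 1.68-fold in KO by day 10 (log2 0.75 ± 0.19, adjusted p = 0.0285). The day 10 difference between genotypes was 0.08 with a 95% interval from -0.34 to 0.50. Both calls were fragile. The day 0 call was lost without replicate A or B of KO day 0 (adjusted p = 0.144 and 0.0809), replicate B of WT day 0 (0.181), replicate A or B of WT day 10 (0.0562 and 0.0506) or replicate B of WT day 2 (0.0522). The KO rise was lost without replicate A or B of KO day 0 (0.146 and 0.0810), of KO day 10 (0.0843 and 0.188), of WT day 10 (0.0640 and 0.0598) or of WT day 2 (0.0548 and 0.0600). The changes to day 10 differed between the genotypes (log2 0.96 ± 0.26 for KO minus WT, adjusted p = 0.0463), a call kept in 5 of 20 alternatives. With the replicate letter as a block, Jarid2 was also called lower in KO at day 2 (-0.58, adjusted p = 0.000647) and higher in KO at day 2 than at day 0 (0.30, adjusted p = 0.0487).

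In the PRC2 core, the scaffold Suz12 was lower in KO at day 10. It stood at 248 and 312 CPM in WT day 0, 247 and 306 CPM in WT day 2, and 374 and 384 CPM in WT day 10. The KO values were 226 and 249.8 CPM at day 0, 201 and 221 CPM at day 2, and 219 and 223 CPM at day 10, and the ESC library held 205 CPM. The day 10 groups stood well apart, and the difference was 1.66-fold (log2 -0.73 ± 0.17, adjusted p = 0.00970). It was lost on leaving out replicate A or B of KO day 10 (adjusted p = 0.0802 and 0.0825) or of WT day 10 (0.0621 and 0.0659), with the log2 value between -0.70 and -0.72. The difference between day 10 and day 0 in WT cells missed the threshold (0.38 ± 0.17, adjusted p = 0.108). It was called by DESeq2 (0.43, adjusted p = 0.00125) and with the gene length offset (0.46, adjusted p = 0.0370). The letter block at days 0 and 2 gave 0.44 (adjusted p = 0.00157). That value sets day 10 against the level of replicate A, which was below B for Suz12 at day 0. With the replicate letter as a block, Suz12 was called lower in KO at day 2 as well (-0.31, adjusted p = 0.0193).

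Ezh1, the less active of the catalytic subunits, stood at 43.6 and 59.5 CPM in WT day 0, 46.3 and 58.4 CPM in WT day 2, and 83.6 and 70.6 CPM in WT day 10. In KO it stood at 44.3 and 59.9 CPM at day 0, 28.2 and 37.6 CPM at day 2, and 43.5 and 46.0 CPM at day 10, with 43.0 CPM in the ESC library. KO libraries were below WT without overlap at days 2 and 10. The day 10 difference was 1.67-fold (log2 -0.74 ± 0.19, adjusted p = 0.0178), and the call was lost without replicate A or B of KO day 10 (0.132 and 0.111) or replicate A of WT day 10 (0.150). In WT cells the rise from day 0 to day 10 missed the threshold (0.53 ± 0.19, adjusted p = 0.0621) and was called in 5 of 20 alternatives. These include the letter block at days 0 and 2, which sets day 10 against the level of replicate A. Under the letter block, the day 2 difference between genotypes (-0.60, adjusted p = 0.000268) and the KO change from day 0 to day 2 (-0.68, adjusted p = 0.000145) were called too. So was the difference of the changes to day 2 (-0.67, adjusted p = 0.00822).

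Ezh2, the main catalytic subunit, was called in none of the 11 comparisons in the fit without a block. It stood at 175 and 155 CPM in WT day 0, 163 and 144 CPM in WT day 2, and 193 and 209 CPM in WT day 10. The KO values were 188 and 154 CPM at day 0, 159 and 123 CPM at day 2, and 162 and 136 CPM at day 10, and the ESC library held 189 CPM. The widest gap lay at day 10, where both WT libraries were above both KO libraries (log2 -0.38 for KO over WT, 95% interval -0.93 to 0.16, adjusted p = 0.277). This difference was called with the letter block at days 0 and 2 (-0.38, adjusted p = 0.00552) and when only the libraries compared were fitted (-0.38, adjusted p = 0.0117). Ezh1 made up 10.0% to 21.4% of the summed Ezh1 and Ezh2 TPM over the 13 libraries.

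Eed, which binds the product of the complex, stood at 88.8 and 71.2 CPM in WT day 0, 77.8 and 69.3 CPM in WT day 2, and 119 and 123 CPM in WT day 10. In KO it stood at 94.0 and 66.1 CPM at day 0, 81.8 and 60.1 CPM at day 2, and 68.1 and 67.2 CPM at day 10, and the ESC library held 134 CPM. WT day 10 was above every other pre-iPSC library. The day 10 difference between genotypes lay just outside the threshold (log2 -0.79 ± 0.27, adjusted p = 0.0537) and was called in 13 of 20 alternatives. In WT cells, day 10 against day 2 also missed it (0.69 ± 0.27, adjusted p = 0.0912), as did day 10 against day 0 (0.53 ± 0.27, adjusted p = 0.176). These were called in 5 and 3 of 20 alternatives. Both tallies include the letter block at days 0 and 2, which sets day 10 against the level of replicate A.

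Rnf2, the ubiquitin ligase of PRC1, was likewise called in none of the 11 comparisons without a block. It stood at 116 and 87.1 CPM in WT day 0, 81.3 and 64.7 CPM in WT day 2, and 113 and 111 CPM in WT day 10. The KO values were 131 and 81.8 CPM at day 0, 95.9 and 54.8 CPM at day 2, and 81.5 and 86.0 CPM at day 10, and the ESC library held 111 CPM. Its difference between genotypes at day 10 (-0.37, adjusted p = 0.498) was called in the same alternatives as that of Ezh2 (adjusted p = 0.00893 and 0.00529). Replicate A exceeded B by 1.26-fold to 1.75-fold in each of the 4 groups of days 0 and 2. With the replicate letter as a block, Rnf2 was called lower at day 2 than at day 0 in WT (-0.50, adjusted p = 0.00323) and in KO (-0.52, adjusted p = 0.00262), and Ezh2 in KO (-0.30, adjusted p = 0.0465). Rnf2 made up 69.3% to 83.8% of the summed Rnf2 and Ring1 TPM.

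The letters split the members in 2 ways. In all 4 groups of days 0 and 2, replicate A was above replicate B for Ezh2, Eed and Rnf2, whose annotated transcripts measure 2651, 2060 and 3028 bases. Replicate B was above replicate A in all 4 groups for the other 6 members, of which Ezh1, Suz12, Jarid2, Mtf2 and Phf19 measure 3743 to 4921 bases and Cbx7 measures 2893 bases. The part of transcript length in these levels was not tested gene by gene. With an offset for gene length, chosen after seeing the data, the 22 calls over the 9 members and 11 comparisons were all kept and 11 were gained.

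**Figure D3:**
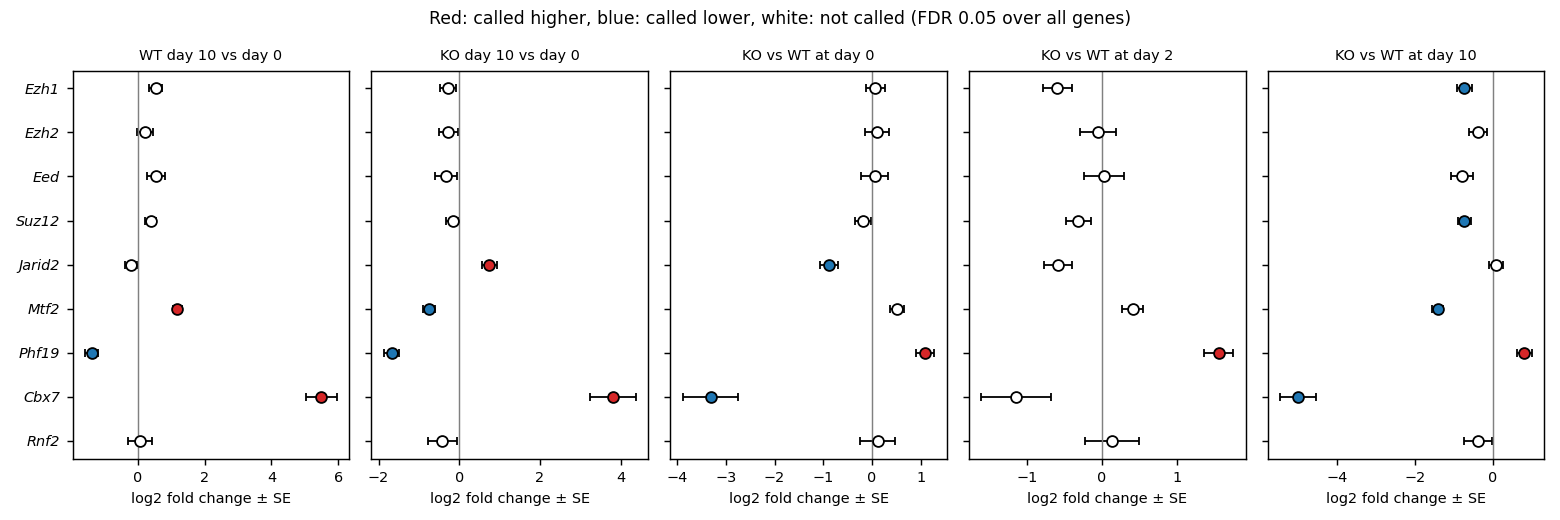
Log2 fold change (horizontal axis, each panel with its own scale) of the 9 members in 5 comparisons, with bars of 1 standard error. Red points were called higher, blue points lower and white points not called at an adjusted p under 0.05. Mtf2 lies to the right in WT day 10 against day 0 (1.18) and to the left in KO (-0.74), while Ezh2 and Rnf2 are white throughout.

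Each count of called members is set beside the share called among all genes, and the difference between the 2 was not tested. Between day 0 and day 2, 1 of 9 members was called in WT (5.3% of all 14324 genes tested were called) and 1 of 9 in KO (6.39% of all). Between day 0 and day 10, 3 of 9 were called in WT (34.1% of all) and 4 of 9 in KO (15.1% of all). From day 2 to day 10, 2 of 9 were called in WT (29.5% of all). In KO edgeR called 0 of 9 (3.1% of all), while 4 members had an unadjusted p under 0.05 and DESeq2 called 2.

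Between the genotypes, 3 of 9 members were called at day 0 (8.29% of all), 1 of 9 at day 2 (10.5% of all) and 5 of 9 at day 10 (32.3% of all). The median log2 difference of the 9 members at day 10 was -0.73, with 4 called lower and 1 higher, against a median of -0.02 over all genes tested. The changes to day 10 differed between genotypes for 2 of 9 (12.6% of all). For the changes to day 2, edgeR called 0 of 9 (0.195% of all), 2 members had an unadjusted p under 0.05, and DESeq2 called 0.

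Within days 0 and 2 the letters pair the libraries, and the block raised the counts for all genes as well. With it, 2 of 9 members changed by day 2 in WT (30.1% of all) and 7 of 9 in KO (29.5% of all). Between genotypes 4 of 9 differed at day 0 (30.4% of all) and 6 of 9 at day 2 (36.7% of all), and 1 of 9 changed differently by day 2 (7.74% of all).

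Levels were set in order per length, as mean TPM ± SD (n = 2). At WT day 0 Suz12 (131 ± 46.2), Ezh2 (125 ± 14.1) and Jarid2 (117 ± 48.8) led and did not separate beyond their spread, nor did Rnf2 (66.5 ± 0.495) and Mtf2 (61.9 ± 16.0). Ezh1 (25.2 ± 10.2), Phf19 (10.5 ± 3.11) and Cbx7 (1.64 ± 0.778) came last. At WT day 10 the order was Suz12 (166 ± 0.884), Ezh2 (146 ± 6.46), Mtf2 (138 ± 7.06), Eed (114 ± 1.27), Jarid2 (97.3 ± 4.99), Rnf2 (71.2 ± 1.53), Cbx7 (70.5 ± 7.39), Ezh1 (35.2 ± 4.65) and Phf19 (3.92 ± 0.113). There Ezh2 and Mtf2 overlapped, as did Rnf2 and Cbx7.

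At KO day 10 Ezh2 (106 ± 14.2), Jarid2 (96.7 ± 11.3) and Suz12 (94.3 ± 0.191) led with overlapping spreads, Mtf2 (48.7 ± 2.08) lay level with Rnf2 (51.8 ± 1.37), and Cbx7 (2.08 ± 1.22) came last. In the single ESC library Cbx7 led with 133 TPM, followed by Ezh2 (118), Mtf2 (111) and Eed (108), and Phf19 came last with 4.99. The WT day 10 cells thus shared with the ESC library a high Cbx7 and Mtf2, with Suz12 higher in WT day 10 (166 against 76.8 TPM). A low Phf19 was also shared, but not particular to WT day 10. It stood at 2.67 and 4.44 TPM in WT day 2 and at 7.22 and 5.77 TPM in KO day 10. A single library allows no test of these differences. The ESC library also had the lowest mean gene length weighted by counts (2891 bases), and its part in these differences was not tested.

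Over the 13 libraries, which share depth, letter and day, the members' log2 CPM followed each other in 2 loose sets, given as description only. Ezh1 ran with Suz12 (Pearson r = 0.89), and Ezh2 ran with Eed (0.89) and Rnf2 (0.87). The sets were not closed, since Eed also ran with Mtf2 (0.80) and Cbx7 (0.75). They also match the letters: at days 0 and 2 replicate A was above B for Ezh2, Eed and Rnf2 and below it for Ezh1 and Suz12. The part of the letters in these correlations was not tested. Among 10753 genes that averaged 5 CPM or more, those most like Cbx7 were Gfpt2 (0.991), Mybl2 (0.985) and Pard6b (0.981), and those most like Mtf2 were Tnks2 (0.977), Homer2 (0.964) and Sept3 (0.960). Those most like Phf19 were Fam20c (0.960), Smo (0.954) and Lingo3 (0.947). The genes nearest to Ezh2 were Mcm6 (0.951), Mcm3 (0.949) and Ints10 (0.948), and Mcm6 (0.972) was also nearest to Rnf2, followed by Supt16h (0.971) and Fam100b (0.940). Eed was nearest to Cirh1a (0.980), Suz12 to Zrsr1 (0.965), Ezh1 to Frmd6 (0.952) and Jarid2 to Inadl (0.963). The 15 proliferation genes summed to 4137 to 5841 CPM over the 12 pre-iPSC libraries.

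Of 8 further PRC2 subunits and regulators, 2 rose in WT between day 0 and day 10 (median of the 8, 0.12; 34.1% of all genes were called) and the same 2 were lower in KO than in WT at day 10 (32.3% of all called). These were AU022751 (Ezhip), an inhibitor of the catalytic subunit, with 0 counts over WT day 0 and 210 over WT day 10 (at least 95.2-fold higher, with the floor of 3 counts over the group), and E130012A19Rik (Epop), an accessory subunit (0.76 on the log2 scale, adjusted p = 0.00871). In KO day 10 AU022751 had 2 counts, a ratio to WT of 0.00984 with a 95% counting interval from 0.00118 to 0.0360, and E130012A19Rik was at -0.80 (adjusted p = 0.00733).

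PRC1 subunits beyond Cbx7 and Rnf2 moved in both directions. Of 24 tested, 4 rose and 5 fell in WT to day 10, 4 rose and 2 fell in KO, and at day 10 6 were higher and 6 lower in KO than in WT. Over all genes 34.1%, 15.1% and 32.3% were called in these comparisons. Bmi1, a Pcgf subunit of canonical PRC1, fell in WT (log2 -1.36, adjusted p = 0.000186) and was higher in KO at day 10 (1.15, adjusted p = 0.000514), while Pcgf6, of a variant form, was lower (-0.92, adjusted p = 0.00147). Rybp, which marks variant PRC1, was lower in KO at day 0 (-1.15, adjusted p = 0.00182) and rose there by day 10 (0.97, adjusted p = 0.00281).

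Of 8 Trithorax-group genes, which act against Polycomb, 3 were called in WT to day 10, near the share of all genes (34.1%). Among them 2 rose, Ash2l (log2 2.07, adjusted p = 0.000768) and Wdr5 (0.85, adjusted p = 0.0169), both core subunits of H3 lysine 4 methyltransferases, and Men1 fell (-0.68, adjusted p = 0.0117). Ash2l (-1.60, adjusted p = 0.00292) and Wdr5 (-0.98, adjusted p = 0.00973) were also lower in KO at day 10. Of 3 H3K27 demethylase genes, Uty in KO to day 10 gave the only call (-0.63, adjusted p = 0.0478). Of the 4 genes of the deubiquitinase that removes the PRC1 mark, Asxl3 rose to day 10 in WT (2.14, adjusted p = 0.00110) and KO (2.35, adjusted p = 0.00135), and Bap1, its catalytic subunit, fell in WT (-0.43, adjusted p = 0.04997).

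Of 25 developmental regulators commonly used as examples of Polycomb targets, 17 passed the filter on low counts. In WT to day 10, 8 rose and 2 fell (median log2 1.12, against -0.03 over all genes). In KO 4 rose and 3 fell (median 0.00), and at day 10 2 were higher and 6 lower in KO than in WT (median -0.33). The shares called among all genes in these comparisons were 34.1%, 15.1% and 32.3%. The genotype difference ran the other way earlier, with 4 higher and 1 lower in KO at day 0 (median 0.55) and 5 higher at day 2 (median 0.76). There 8.29% and 10.5% of all genes were called. Msx1 fell in WT (-1.87, adjusted p = 0.000326) as did Pax7 (-4.24, adjusted p = 0.000507), and Gata4 rose (2.63, adjusted p = 0.00116) from 0.409 to 2.70 CPM. Isl1 went from 0 to 34 counts, at least 15.4-fold. In KO at day 10 Nkx6-1 was higher (4.70, adjusted p = 7.3e-05), as was Msx1 (1.85, adjusted p = 0.000454), and Eomes was lower (-2.38, adjusted p = 0.00144). Most of these genes stood at a few CPM, and no binding or histone mark was measured in these libraries.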

How the data were processed

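The authors deposited 1 table per library with, for each gene, an expected count, a TPM value (scaled by transcript length and library) and gene lengths. Per the submitters' processing notes, Bowtie2, RSEM and mm9 were used, whose versions the sources used here do not give. Expected counts were rounded to whole numbers for tests. CPM is the expected count scaled by the library total.

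Counts of the 12 pre-iPSC libraries were fitted together with edgeR 4.0.16 in R 4.3.3 (6 groups, filterByExpr, TMM factors, quasi-likelihood test), and Benjamini-Hochberg adjusted p-values over 14324 genes were called under 0.05 in 11 comparisons. A difference of changes is KO minus WT. Standard errors are the log2 fold change over the root of F. The method was checked on simulated counts. These were drawn with no difference between the letters, so the check does not cover the letter effect. DESeq2 1.42.0, other scalings, no filter, blocks and leaving out each library were alternatives. TPM and lengths served to compare genes, and the ESC library entered no test. One item is not reported here. No 2 libraries held identical values.

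Deviations from group means correlated at 0.81 to 0.86 between libraries of the same letter within days 0 and 2 (6 pairs) and at -0.11 to 0.06 with day 10 (9 pairs), so letters pair libraries only within days 0 and 2. The pairing is read from the letters in the titles, and blocked values are given where they change a call within days 0 and 2.

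The members and the gene lists were chosen with earlier results of these data known. Named were the members, Kdm3b, at most 4 called genes of lowest adjusted p per list and comparison, summed marker levels, and the 3 genes most correlated with each member (log2 CPM, prior count 2), in the report partly only the nearest. Marker sums for 6 neural genes (127 to 775 CPM) and 6 endothelial and blood genes (29.2 to 107 CPM) were taken over the pre-iPSC libraries too. Upstream windows came from RefSeq (GRCm38.p6).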

Additional observations from a re-analysis of the deposited data

Results flagged for a closer look

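The genotypes differed in their change from day 0 to day 10 for 13 of the genes followed here, by edgeR's test of that difference (adjusted p under 0.05). Cell type markers and the 15 proliferation genes were left out of this count, and the number of genes in each list is given below. Among all genes tested 12.6% were called in the same test. All values are KO minus WT on the log2 scale. Among the 9 members these were Mtf2 (-1.93), which rose in WT and fell in KO, and Jarid2 (0.96), whose call was kept in 5 of 20 alternatives. Among 24 further PRC1 genes they were Phc2 (1.54), Bmi1 (1.40), Pcgf5 (1.16), Rybp (0.78) and Pcgf6 (-0.72), and among 8 Trithorax genes Ash2l (-1.64). Among the 17 developmental regulators tested they were Gata4 (-3.44), Gata6 (-3.25), Lhx2 (-2.49), Msx1 (1.72) and Isl1 (-8.39). The 8 further PRC2 genes, 3 H3K27 demethylase genes and 4 deubiquitinase genes gave 0 calls. Isl1 had 0 counts at WT day 0, so its fitted value depends on the prior count and is no bound.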

How the results depend on the processing

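Over 20 alternatives, 10 calls were kept in every one: Cbx7 in WT day 10 against day 0 and day 2, in KO day 10 against day 0 and between genotypes at day 10, Mtf2 in WT day 10 against both earlier days, between genotypes at day 10 and in the difference of changes to day 10, and Phf19 in both genotypes between day 0 and day 10. No called value changed sign.

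Counts of called members moved as follows, and the cause was not tested except where fewer libraries were fitted. DESeq2 called 5 members in WT day 10 against day 0, 4 against day 2, 2 between day 10 and day 2 of KO, 4 between day 2 and day 0 of KO, 5 between genotypes at day 2, and 4 in the difference of changes to day 10. The gene length offset, chosen after seeing the data, called 6 (WT day 10 against day 0), 5 (WT day 10 against day 2), 2 (KO day 2 against day 0) and 3 (genotypes at day 2). RLE factors, library totals and no filter each left 1 member in the difference of changes to day 10. Fitting only the libraries compared gave 0 in WT and KO day 2 against day 0 and between genotypes at days 0 and 2, 2 in KO day 10 against day 0, 8 between genotypes at day 10 and 1 in the difference of changes to day 10, and in this fit 9 of the 22 calls were lost and 4 gained.

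With the replicate letter as a block throughout, members called were 5 in each of WT day 10 against day 0 and against day 2, 2 in KO day 2 against day 0 and 3 between genotypes at day 2. With the letter as a block at days 0 and 2 only, they were 2 (WT) and 7 (KO) in day 2 against day 0. They were 6 and 8 between genotypes at days 2 and 10, and 1 and 7 in the differences of changes to days 2 and 10. In that fit the day 0 and day 2 levels are those of replicate A. Its counts of 6 (WT) and 7 (KO) in day 10 against day 0 thus compare day 10 with the level of replicate A. So do its counts of 5 (WT) and 6 (KO) in day 10 against day 2. The block changed no other count by over 1.5 times, and lost no call. Over all genes, that block at days 0 and 2 gave the highest counts and fewer libraries the lowest. Its counts for day 10 against day 0 or day 2 again compare day 10 with the level of replicate A. In day 2 against day 0 the range was 119 to 4318 in WT (759 as reported) and 0 to 4225 in KO (915). In day 10 against day 0 it was 3000 to 9651 in WT (4889) and 1005 to 7099 in KO (2165), and against day 2 it was 2304 to 9182 in WT (4227) and 0 to 4895 in KO (444). Between genotypes it was 141 to 4360, 79 to 5252 and 2620 to 9136 at days 0, 2 and 10 (1187, 1498 and 4628), and for the differences of changes 0 to 1109 at day 2 (28) and 925 to 6388 at day 10 (1798).

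Leaving out 1 library gave 2 to 4 members in KO day 10 against day 0, 0 to 2 in KO day 2 against day 0, 0 to 3 and 2 to 6 between genotypes at days 0 and 10, and 1 to 2 in the difference of changes to day 10. A lone library left in a group is assumed to vary like the others. By rank correlation in place of Pearson's, at most 1 of the 3 genes most like each member stayed among its 3. Depth limits Cbx7 in KO day 0, at 9 counts over 2 libraries.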
